A study of Saccharomyces cerevisiae with 24 samples.

Results

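HAC1 and 9 genes for protein folding in the endoplasmic reticulum were followed through the ribosome fractions of budding yeast (Saccharomyces cerevisiae). They were taken by systematic name: HAC1 (YFL031W), KAR2 (YJL034W), LHS1 (YKL073W), SIL1 (YOL031C), SCJ1 (YMR214W), JEM1 (YJL073W), PDI1 (YCL043C), EUG1 (YDR518W), ERO1 (YML130C) and FPR2 (YDR519W). All 10 were among the 6369 gene rows of the count table, and all 10 passed the low-count filter that left 5380 genes for testing. The libraries came from a strain without RPL22A (ΔRPL22A), a strain without RPL22B (ΔRPL22B) and a wild-type strain (WT). RPL22A and RPL22B are paralogs for the large-subunit ribosomal protein Rpl22. All cells, WT included, grew to log phase (OD 0.6 to 0.8) and received cycloheximide, a drug that stalls ribosomes on their mRNA, before sucrose gradients were run. Sequencing covered 4 RNA pools of each strain: input RNA, monosomes (mRNA with a single ribosome), light polysomes (titled PolysomeLow) and heavy polysomes (titled PolysomeHigh). In the count table the monosome columns are named low, the light polysome columns med and the heavy polysome columns high. The 12 groups hold 2 biological duplicates each, 24 libraries in all. The labels give no strain background, and neither they nor the design text name an agent that stresses the endoplasmic reticulum.

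Proteins that enter the endoplasmic reticulum are folded there by Hsp70 chaperones and their J-protein partners, by disulfide isomerases with their oxidase, and by prolyl isomerases. When unfolded proteins build up, the membrane kinase and nuclease Ire1 removes an intron from HAC1 mRNA in the cytoplasm, tRNA ligase joins the exons, and the Hac1 protein that results switches on folding genes such as KAR2, PDI1 and ERO1. Unspliced HAC1 mRNA is exported to the cytoplasm as well but gives no protein, because the intron pairs with bases ahead of the start codon. The count table has 1 row for HAC1, so that spliced and unspliced HAC1 mRNA cannot be told apart in any value below.

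HAC1 lies on chromosome VI from 75179 to 76147 on the plus strand (R64, start codon to stop codon), with 2 coding exons of 717 coding bases together and an intron of 252 bases. The intron and the pairing stretch are shown because they set how ribosomes can use this mRNA. The longest run complementary between the intron and the 100 bases ahead of the start codon was 11 bases, and it stayed 11 bases when G-U pairs were allowed. Its 2 arms are in capitals in the intron and in the upstream stretch, whose arm ends 21 bases before the start codon. In the 3 junction sequences the capitals mark exon bases. All are printed 5′ to 3′ as DNA of the plus strand from the RefSeq R64 genome.
HAC1 upstream arm, chrVI:75142-75162: acctcCTCCTCCCCCAcctac
HAC1 intron, chrVI:75840-76091: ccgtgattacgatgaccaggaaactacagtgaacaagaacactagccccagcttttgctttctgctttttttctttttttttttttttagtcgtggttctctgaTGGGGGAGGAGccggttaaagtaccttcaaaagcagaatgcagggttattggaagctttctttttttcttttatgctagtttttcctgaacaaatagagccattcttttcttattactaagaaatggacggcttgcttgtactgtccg
HAC1 exon 1 to intron, chrVI:75825-75854: ATTGGCGTAATCCAGccgtgattacgatga
HAC1 intron to exon 2, chrVI:76077-76106: tgcttgtactgtccgAAGCGCAGTCAGGTT
HAC1 exons as joined after splicing: ATTGGCGTAATCCAGAAGCGCAGTCAGGTT

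**Figure D1:**
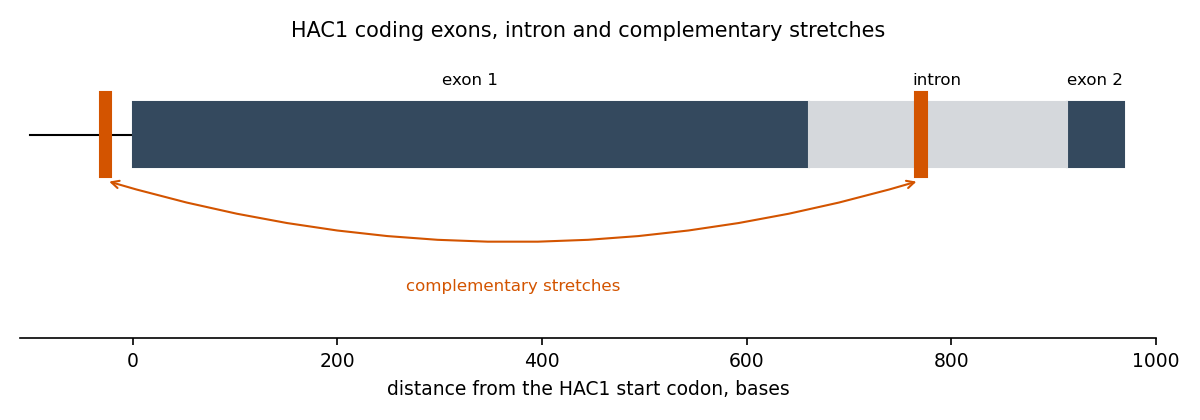
Map of the HAC1 coding region to scale, with distance from the start codon in bases on the horizontal axis. Dark boxes are the coding exons, the pale box is the intron, and the orange bars joined by an arc are the 11-base complementary stretches, one ahead of the start codon and the other inside the intron.

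The other 9 genes each have a single coding exon, and none of the 10 overlaps an annotated gene. No stretch of 50 bases in any of them recurs elsewhere in the genome, and the isomerase paralogs PDI1 and EUG1 share at most 21 bases in a row. EUG1 (chromosome IV, 1478608 to 1480161) and FPR2 (1480425 to 1480832) are neighbours on the same strand. Upstream of the start codon, the window of 250 bases before to 50 bases after it was searched on both strands for CAGCGTG, the core of the element that Hac1 binds, and for TACGTG, a second sequence known from Hac1 targets. CAGCGTG stood in 2 of the 10 windows, those of KAR2 and LHS1, and in 70 of the 6001 windows of the genome (1.17%). TACGTG stood in 3 of the 10, those of ERO1, EUG1 and SIL1, and in 465 of the 6001 (7.75%). The matches are printed with their motif in capitals, on the gene's own strand, because these are the members in which a sequence of that kind was found. A motif on the opposite strand reads as its reverse complement.
KAR2, chrX:381156-381184, plus strand: gaggaactggaCAGCGTGtcgaaaaagtt
LHS1, chrXI:296320-296348, plus strand: ataatatcgaaCACGCTGttataaaagtg
ERO1, chrXIII:13296-13325, minus strand: aacgatacggagTACGTGtcataaaaactt
EUG1, chrIV:1478422-1478451, plus strand: ttcccttcaaaaCACGTAaacgatagttgg
SIL1, chrXV:267614-267643, minus strand: atgtgaaaaggcCACGTAaatgatagagca

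Total counts per library ranged from 2435632 to 10947937. Rows at the ribosomal DNA took 62.5% to 97.1% of them, which left 314212 to 1950344 counts for other genes. The spread within duplicates exceeded counting noise (chi-square over its degrees of freedom 1.83 to 34.3). It was highest in ΔRPL22B light polysomes, where both libraries lay closer to a light library of another strain. Over 8 libraries per strain RPL22B had 6354 counts for ΔRPL22A, 0 for ΔRPL22B and 1329 for WT. RPL22A had 3 counts for ΔRPL22A, 40 for ΔRPL22B and 25 for WT, so that it says little about the ΔRPL22A label. Genes of the 2 mating types separated the deletion strains from WT. The 4 α-specific genes summed to 2530 to 8115 counts per ΔRPL22A library, 1964 to 7563 per ΔRPL22B library and 0 to 28 per WT library. The 5 a-specific genes summed to 7 to 19 counts per ΔRPL22A library, 7 to 26 per ΔRPL22B library and 228 to 2181 per WT library. In any comparison with WT the missing paralog and the mating type therefore cannot be told apart. Levels are given as TMM-scaled CPM, counts over the library total (ribosomal DNA rows included) multiplied by its TMM factor. The factors ran from 0.221 (ΔRPL22B monosome replicate 2) to 3.43 (ΔRPL22B input replicate 2), so levels and ratios between pools rest on this scaling. A ratio between pools is thus relative to the other mRNAs of each pool and does not compare molecules per cell. A share below means this scaled level. Ratios are log2 values from edgeR ± a standard error, taken as the absolute ratio over the square root of its F statistic. Each group has 2 libraries, and a call is an adjusted p under 0.05 over all 5380 genes.

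HAC1 was an abundant mRNA whose share was high in monosomes and in heavy polysomes and low in light polysomes, in every strain. Per kilobase of coding length it stood at 141 ± 37.4 CPM over the 6 input libraries (SD), 175th of 5300 genes with a length. Next came PDI1 with 29.6 ± 4.56, FPR2 with 13.6 ± 3.23 and KAR2 with 7.46 ± 0.997 CPM per kilobase. The other 6 genes lay between 0.724 (LHS1) and 3.43 (SCJ1) CPM per kilobase.

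HAC1 had 152.1 and 100.5 CPM in ΔRPL22A input, 255.9 and 241.0 in monosomes, 123.1 and 90.6 in light polysomes and 318.6 and 374.3 in heavy polysomes. In ΔRPL22B it had 77.9 and 80.7 CPM in input, 233.9 and 293.8 in monosomes, 45.4 and 117.6 in light polysomes and 303.3 and 316.5 in heavy polysomes. In WT it had 94.3 and 100.5 CPM in input, 264.6 and 293.5 in monosomes, 152.2 and 133.7 in light polysomes and 511.6 and 221.1 in heavy polysomes. Every monosome and heavy polysome library lay above every input and light polysome library, whatever the strain. The WT heavy duplicates lay far apart: replicate 1 was the highest of the 24 libraries and replicate 2 was the lowest of the 6 heavy ones. The counts behind these levels were 318 to 3260 reads per library.

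**Figure D2:**
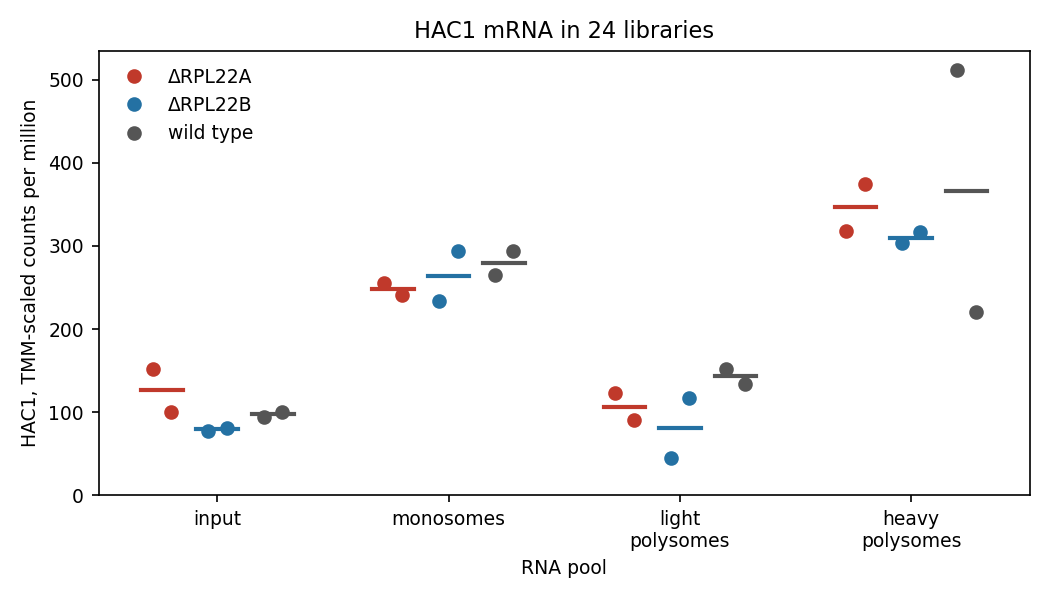
HAC1 level in TMM-scaled CPM in each of the 24 libraries, by RNA pool, with red points for ΔRPL22A, blue for ΔRPL22B and grey for WT. Points are libraries and bars are means of 2; monosome and heavy polysome libraries lie at 221 CPM or more, and input and light polysome libraries at 152 CPM or less.

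The heavy polysome share of HAC1 exceeded its input share in all 3 strains. The log2 ratio was 1.45 ± 0.38 in ΔRPL22A (adjusted p = 0.00905), 1.97 ± 0.38 in ΔRPL22B (adjusted p = 0.000594) and 1.91 ± 0.38 in WT (adjusted p = 0.00133). Of all genes tested, 16.9%, 16.5% and 10.3% were called in these comparisons in ΔRPL22A, ΔRPL22B and WT. The WT call depended on replicate 1 of the heavy libraries, without which the ratio was 1.18 (adjusted p = 0.139). The ΔRPL22A call was lost without input replicate 2 (adjusted p = 0.089) or heavy replicate 2 (adjusted p = 0.0568), while the ΔRPL22B call was kept without any single library.

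Monosomes gave the same direction. The monosome to input ratio was 1.73 ± 0.38 in ΔRPL22B (adjusted p = 0.00108) and 1.52 ± 0.38 in WT (adjusted p = 0.00316), and 0.98 ± 0.37 in ΔRPL22A, which missed the threshold (adjusted p = 0.0796). Calls made up 29.4% of genes in ΔRPL22B, 30.8% in WT and 13.7% in ΔRPL22A in this comparison. A further fit left out 4 libraries: WT heavy replicate 2, ΔRPL22A input replicate 1, ΔRPL22A light replicate 2 and ΔRPL22B light replicate 1. It is the fit without the 4 libraries below, and it leaves those groups without duplicates. The 4 were set by name and not by a computed rule. By correlation of levels the first 3 lay closest to their own duplicate, and ΔRPL22B light replicate 1 to a ΔRPL22A light library. Calls in this fit are therefore only a check of sensitivity. In it the ΔRPL22A monosome to input ratio was 1.298, with no duplicate left for its input, so only the ratio is given. In a fit of the compared groups alone the ratio passed, at 1.02 (adjusted p = 0.0203). Over the 10 genes 8 of 30 monosome to input tests were called higher and 0 lower, where 14% and 10.6% of all gene tests were.

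Every light polysome library held less HAC1 than any library of the fractions on either side. Their ratio to input was -0.24 ± 0.37 in ΔRPL22A, 0.04 ± 0.37 in ΔRPL22B and 0.56 ± 0.37 in WT, with no call in the fit of all libraries. The WT ratio passed without the 4 libraries, at 0.55 (adjusted p = 0.0407), and in a fit of the compared groups alone, at 0.58 (adjusted p = 0.00307). The heavy to light ratio was called in all 3 strains, at 1.695 ± 0.38 in ΔRPL22A (adjusted p = 0.000906), 1.93 ± 0.38 in ΔRPL22B (adjusted p = 0.000409) and 1.36 ± 0.38 in WT (adjusted p = 0.00676), where 39.3%, 27.4% and 32% of all genes were called. The WT call was lost without heavy replicate 1 (ratio 0.63, adjusted p = 0.263) or light replicate 2 (adjusted p = 0.0673). The light to monosome ratio was -1.22 ± 0.37 in ΔRPL22A (adjusted p = 0.0295), -1.696 ± 0.38 in ΔRPL22B (adjusted p = 0.00274) and -0.96 ± 0.37 in WT, where it missed the threshold (adjusted p = 0.0697). The WT ratio passed with edgeR without the low-count filter (adjusted p = 0.0475) and in a fit of the compared groups alone, at -1.01 (adjusted p = 0.00352). The ΔRPL22A call was lost without any 1 of its 4 libraries, with adjusted p of 0.0637 to 0.197. All genes together were called in 13.1% of light to monosome tests in ΔRPL22A, 16.5% in ΔRPL22B and 19.7% in WT.

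Heavy polysomes and monosomes, the 2 pools where HAC1 was high, were not told apart. The heavy to monosome ratio was 0.48 ± 0.37 in ΔRPL22A, 0.23 ± 0.37 in ΔRPL22B and 0.39 ± 0.37 in WT. In the fit without the 4 libraries, which drops WT heavy replicate 2, the WT ratio was 0.88 (adjusted p = 0.0119). In order of level, then, heavy polysomes and monosomes came first and light polysomes and input last, and neighbours within each pair did not differ beyond their spread in the fit of all libraries.

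HAC1 was also ranked among all mRNAs and among mRNAs of its length. Its heavy to input ratio was exceeded by 266 of the 5380 genes in ΔRPL22A, 189 in ΔRPL22B and 141 in WT. The median ratio of genes with a coding length within 25% of that of HAC1 (538 to 896 bp, 949 genes with HAC1) was -0.35 in ΔRPL22A, 0.00 in ΔRPL22B and -0.09 in WT. Of those genes 27, 44 and 31 exceeded HAC1 in ΔRPL22A, ΔRPL22B and WT. In the heavy to light ratio 7, 10 and 18 of them did, against medians of -1.07, -0.73 and -0.91. In the monosome to input ratio more genes exceeded HAC1: 701, 436 and 538 of the 5380, and 161, 108 and 133 of the 949. In the light to input ratio HAC1 lay on the other side, with 854, 804 and 614 of the 949 above it. These are ranks with no test.

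The 5 genes whose levels over the 12 groups followed HAC1 most closely were YFL031C-A, YGL088W, CCT5, SCS3 and ASP1, with Pearson's r of 0.985, 0.936, 0.931, 0.899 and 0.892 on log2 CPM, among 1335 genes with at least 10 CPM on average. The 12 group means share libraries and scaling, and r is a description. YFL031C-A is not in the reference annotation, and its counts were 2.12% to 7.01% of those of HAC1 per library. Its systematic name puts it beside HAC1 (YFL031W) on the other strand, and its exact position was not available. The sources used here do not give whether counting used strand, so whether the 2 rows share reads is not known. YGL088W, on chromosome VII from 345836 to 346201, overlaps the small nucleolar RNA gene SNR10 on the same strand. It ranged from 801 to 1209 CPM in monosomes and 425 to 2481 CPM in heavy polysomes, against 14.0 to 22.9 CPM in input. CCT5, a subunit of the cytosolic chaperonin, had a median of 61.5 CPM in the 6 heavy libraries, 49.3 in monosomes and 25.3 in light polysomes, against 32.5 in input. SCS3, needed for lipid droplet budding and inositol metabolism, had 37.6, 18.3 and 9.50 CPM in those fractions and 4.25 CPM in input. ASP1, the cytosolic asparaginase, had 92.7, 86.9 and 54.3 CPM in those fractions and 25.2 CPM in input. Among the 9 folding genes LHS1 had the highest r with HAC1, at 0.76, and PDI1 the lowest, at -0.47.

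Of the 9 folding genes, 7 were called lower in heavy polysomes than in monosomes in at least 1 strain, and LHS1 and JEM1 in none. None of the 9 was called higher there in any strain, and every one of them except JEM1 had a ratio below 0 in all 3. Over the 10 genes and 3 strains, 11 of 30 tests were called lower and 0 higher (4 of 10 in ΔRPL22A, 3 in ΔRPL22B and 4 in WT). Only 1 of the 11 calls, ERO1 in ΔRPL22A, was kept without any single library. Of all genes, 25.8%, 14.9% and 22.2% were called in either direction in ΔRPL22A, ΔRPL22B and WT, and 13%, 7.27% and 12% were called lower. The median ratio of the 9 folding genes was -0.84 in ΔRPL22A, -1.02 in ΔRPL22B and -1.10 in WT, where the medians of all genes lay between -0.02 and 0.01. The heavy to monosome ratio rose with coding length, with ΔRPL22A medians of -1.12 among 453 genes of the length of FPR2 and 0.64 among 927 genes of the length of LHS1, so each gene was also set beside tested genes within 25% of its own length. All 9 lay below that median in each of the 3 strains in the heavy to monosome ratio, some of them narrowly. JEM1 in WT had 0.10 against a median of 0.16, with 46.6% of genes of its length below it. For FPR2 that share was 36.6% in ΔRPL22A, 41.5% in ΔRPL22B and 41.1% in WT. In the monosome to input ratio 8 of the 9 lay above it in ΔRPL22A, and all 9 did in ΔRPL22B and WT. The same genes were read in each strain, and both ratios use the same monosome libraries, so that these counts are not independent.

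**Figure D3:**
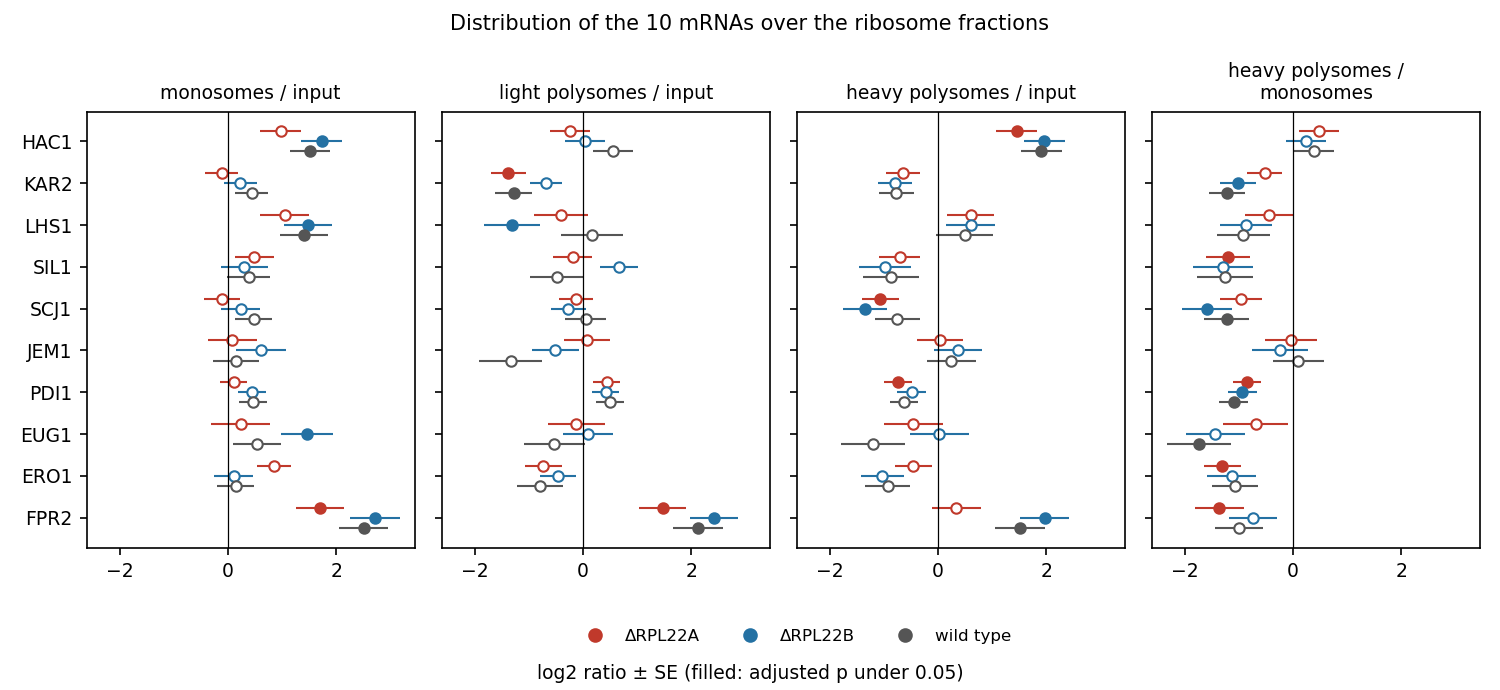
Log2 ratios between pools with standard errors (horizontal axes) for the 10 mRNAs (rows) in ΔRPL22A (red), ΔRPL22B (blue) and wild type (grey), with filled symbols where adjusted p was under 0.05. In the right panel 8 of the 10 genes lie left of 0 in all 3 strains, while HAC1 lies right of 0 and JEM1 near it.

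**Figure D4:**
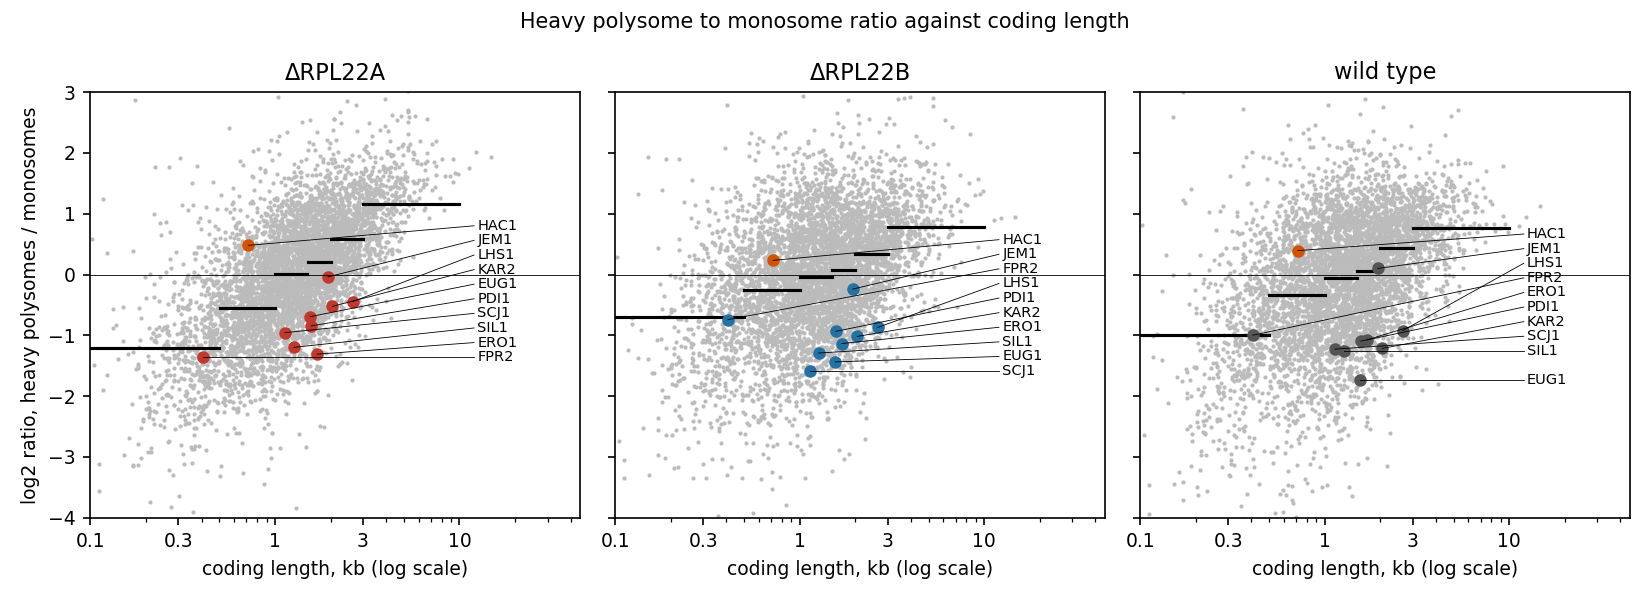
Log2 heavy polysome to monosome ratio (vertical axis) against coding length in kb (log scale) for all tested genes (grey), with the medians of length classes as black bars and the 10 mRNAs labelled. The 9 folding genes lie below the bar of their length class in every strain, except JEM1 in WT (0.10 against 0.06). HAC1 (orange) lies above its bar in every strain. Outside the axes lie 23 ΔRPL22A, 53 ΔRPL22B and 46 WT genes, of 5300 each.

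KAR2, the main Hsp70 of the compartment (BiP in mammals), was lower in heavy polysomes than in monosomes of ΔRPL22B and WT. It had 5.86 and 11.4 CPM in ΔRPL22A heavy polysomes against 10.8 and 13.2 in its monosomes. In ΔRPL22B the heavy libraries had 9.48 and 9.91 CPM and the monosome libraries 21.8 and 17.4. In WT the heavy libraries had 7.90 and 10.95 CPM and the monosome libraries 20.1 and 24.5. The heavy and monosome libraries overlapped in ΔRPL22A only. The log2 ratio was -0.52 ± 0.33 in ΔRPL22A (not called), -1.02 ± 0.33 in ΔRPL22B (adjusted p = 0.0381) and -1.22 ± 0.33 in WT (adjusted p = 0.00958), against like-length medians of 0.35, 0.17 and 0.21. The ΔRPL22B call was lost without any 1 of its 4 libraries, with adjusted p of 0.0732 to 0.265, and the WT call without monosome replicate 2 (adjusted p = 0.0557) or heavy replicate 1 (adjusted p = 0.0848).

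In ΔRPL22A and WT, KAR2 was lower in light polysomes than in input. The levels were 5.54 and 4.23 CPM in ΔRPL22A light polysomes against 11.7 and 14.2 in input, and 5.08 and 8.83 CPM in WT light polysomes against 15.9 and 16.5 in input. The ratio was -1.38 ± 0.32 in ΔRPL22A (adjusted p = 0.00307) and -1.28 ± 0.35 in WT (adjusted p = 0.00491), and -0.68 ± 0.30 in ΔRPL22B, which missed the threshold (adjusted p = 0.0797). The ΔRPL22B value differed in its 2 libraries, at 12.9 and 7.81 CPM, and the ratio passed at -1.11 in the fit without the 4 libraries, which drops the higher of them (adjusted p = 0.00265). Among the 10 genes 6 of 30 light to input tests were called, 3 higher and 3 lower, where 25.6%, 33% and 34.4% of all genes were called in ΔRPL22A, ΔRPL22B and WT. Over the 3 strains 19.6% of all gene tests were called higher and 11.4% lower. Leaving out 1 library ended the ΔRPL22A call (without input replicate 2, adjusted p = 0.0588) and the WT call (without light replicate 1, adjusted p = 0.149). Against monosomes KAR2 in light polysomes was lower in all 3 strains, by -1.26 ± 0.34 in ΔRPL22A (adjusted p = 0.0141), -0.91 ± 0.32 in ΔRPL22B (adjusted p = 0.0477) and -1.72 ± 0.35 in WT (adjusted p = 0.000835). The ΔRPL22B call was lost under 5 other settings, and each of the 3 without at least 1 single library. Over the 10 genes 7 of 30 light to monosome tests were called lower and 0 higher, where 6.16% of all gene tests were called lower. In either direction 13.1% of all genes were called in ΔRPL22A, 16.5% in ΔRPL22B and 19.7% in WT.

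LHS1, an Hsp70 relative that acts as a nucleotide exchange factor for Kar2, was the rarest of the 10 per kilobase, with 4 to 49 reads per library. It had 3.54 and 4.03 CPM in ΔRPL22A monosomes against 1.252 and 2.45 in input, 2.72 and 10.3 CPM in ΔRPL22B monosomes against 2.06 and 2.32 in input, and 4.41 and 5.08 CPM in WT monosomes against 1.82 and 1.59 in input. The monosome to input ratio was 1.05 ± 0.45 in ΔRPL22A (not called), 1.48 ± 0.44 in ΔRPL22B (adjusted p = 0.0124) and 1.41 ± 0.44 in WT (adjusted p = 0.0171). Monosome levels lay above input levels in all 3 strains, where genes of like length had medians of -0.16, -0.52 and -0.50. The ΔRPL22B call was lost without monosome replicate 2, at a ratio of 0.30 (adjusted p = 0.766), or without input replicate 1 (adjusted p = 0.0618), and the WT call was lost without any 1 of its 4 libraries (adjusted p of 0.052 to 0.101). Light polysomes of ΔRPL22B held little LHS1, 0.854 and 0.901 CPM or 7 and 6 reads. Their ratio to input, -1.31 ± 0.51, passed narrowly (adjusted p = 0.0497) and was lost without any 1 library and under 4 other settings. Against monosomes the ΔRPL22B light ratio was -2.79 ± 0.53 (adjusted p = 0.000617), a call lost without monosome replicate 2 (adjusted p = 0.127).

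SIL1, another exchange factor for Kar2, had 2.05 and 2.27 CPM in ΔRPL22A heavy polysomes against 5.15 and 4.602 in monosomes. The ratio was -1.198 ± 0.40 in ΔRPL22A (adjusted p = 0.0282). It was -1.29 ± 0.56 in ΔRPL22B (adjusted p = 0.116) and -1.255 ± 0.52 in WT (adjusted p = 0.0773), neither called. The ΔRPL22A call was lost without any 1 of its 4 libraries (adjusted p of 0.0668 to 0.192) and under DESeq2. Its heavy to light ratio was called in ΔRPL22B alone, at -1.65 ± 0.47 (adjusted p = 0.00973), and that call was lost in a fit of the compared groups alone and without the 4 libraries. It was also lost without light replicate 1 (adjusted p = 0.074) and without heavy replicate 2, at a ratio of -0.89 (adjusted p = 0.3). SIL1 had 3 to 42 reads per library.

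The J proteins SCJ1 and JEM1, which stimulate the ATPase of Kar2, are given in turn. SCJ1 had 2.15 and 1.82 CPM in ΔRPL22A heavy polysomes against 3.70 and 4.31 in monosomes, 1.72 and 1.45 CPM in ΔRPL22B heavy polysomes against 4.24 and 5.37 in monosomes, and 2.82 and 1.27 CPM in WT heavy polysomes against 4.23 and 5.92 in monosomes. All 6 heavy libraries lay below all 6 monosome libraries. The ratio was -0.96 ± 0.39 in ΔRPL22A (adjusted p = 0.068), -1.59 ± 0.47 in ΔRPL22B (adjusted p = 0.0213) and -1.23 ± 0.42 in WT (adjusted p = 0.0364). The ΔRPL22B call was lost without any 1 of its 4 libraries (adjusted p of 0.0686 to 0.163), and the WT call without any of 3 of them, the highest being an adjusted p of 0.361 without heavy replicate 2, at a ratio of -0.74. The WT call was also lost under DESeq2, in a fit of the compared groups alone, with a replicate block within strain and without the 4 libraries (ratio -0.71, adjusted p = 0.342). JEM1, which also serves nuclear fusion, had 1.66 and 2.05 CPM in ΔRPL22A heavy polysomes against 1.93 and 1.73 in monosomes. Its ratio was -0.04 ± 0.48 in ΔRPL22A, -0.24 ± 0.51 in ΔRPL22B and 0.10 ± 0.46 in WT. JEM1 was the folding gene nearest 0 in this ratio in all 3 strains and was called in no comparison of the fit of all libraries. It had the fewest reads of all, 306 over the 24 libraries.

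PDI1, the main protein disulfide isomerase, had the most reads of the 9, 98 to 777 per library. It had 25.3 and 39.1 CPM in ΔRPL22A heavy polysomes against 63.8 and 50.6 in monosomes and 72.4 and 71.8 in light polysomes. In ΔRPL22B it had 30.4 and 31.2 CPM in heavy polysomes against 63.5 and 54.1 in monosomes and 54.9 and 60.7 in light polysomes. In WT it had 30.8 and 24.96 CPM in heavy polysomes against 54.8 and 64.7 in monosomes and 54.7 and 67.7 in light polysomes. The heavy libraries lay below all monosome and light libraries in every strain. The heavy to monosome ratio was -0.84 ± 0.26 in ΔRPL22A (adjusted p = 0.0182), -0.93 ± 0.27 in ΔRPL22B (adjusted p = 0.0183) and -1.10 ± 0.27 in WT (adjusted p = 0.00509). PDI1 was the only member called lower there in all 3 strains, although each call was lost without at least 1 library: heavy replicate 1 in ΔRPL22A (adjusted p = 0.265), monosome replicate 1 in ΔRPL22B (adjusted p = 0.15) and heavy replicate 2 in WT (adjusted p = 0.0741), among others. The heavy to light ratio was -1.17 ± 0.26 in ΔRPL22A (adjusted p = 0.000838), -0.91 ± 0.26 in ΔRPL22B (adjusted p = 0.0108) and -1.13 ± 0.27 in WT (adjusted p = 0.00189). The ΔRPL22A and WT calls in that ratio were kept without any single library, and the ΔRPL22B call was lost without heavy replicate 1 (adjusted p = 0.0692) or 2 (adjusted p = 0.0787) and in a fit of the compared groups alone.

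HAC1 was called higher and PDI1 lower in heavy than in light polysomes in all 3 strains. Of the 30 heavy to light tests of the 10 genes, 4 were called higher and 6 lower, where 14.9% and 18% of all gene tests were, and HAC1 was the only gene called higher in more than 1 strain. The fourth call was LHS1 in ΔRPL22B, at 1.92 ± 0.55 (adjusted p = 0.0102), with 3.45 and 3.30 CPM in heavy against 0.854 and 0.901 CPM in light polysomes, and it was lost without heavy replicate 2 (adjusted p = 0.0689).

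ERO1, the oxidase that recharges Pdi1, had 3.52 and 2.73 CPM in ΔRPL22A heavy polysomes against 7.72 and 8.34 in monosomes. The ratio was -1.31 ± 0.34 (adjusted p = 0.00654) and the call was kept under every alternative and without any single library. The ratio was -1.13 ± 0.45 in ΔRPL22B (adjusted p = 0.0899) and -1.07 ± 0.43 in WT (adjusted p = 0.0692), neither called, with 5 to 16 reads per heavy or monosome library in ΔRPL22B. In ΔRPL22A the light to monosome ratio of ERO1 was -1.58 ± 0.35 (adjusted p = 0.00379), a call also kept throughout. ERO1 in ΔRPL22A monosomes was higher than in every monosome library of the other strains, which ranged from 3.81 to 4.96 CPM. The difference between strains did not pass (ΔRPL22A against WT 0.81 ± 0.34, adjusted p = 0.165).

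EUG1, a nonessential relative of Pdi1, had 0.564 and 1.78 CPM in WT heavy polysomes, 2 and 7 reads, against 3.96 and 4.23 CPM in WT monosomes. The ratio of -1.73 ± 0.59 passed (adjusted p = 0.036) but was lost without any 1 of the 4 libraries (adjusted p of 0.0532 to 0.234) and under DESeq2. In ΔRPL22B monosomes EUG1 had 7.26 and 2.89 CPM against 1.08 and 2.61 CPM in input. That call, at 1.46 ± 0.47 (adjusted p = 0.0204), was lost without monosome replicate 1 (adjusted p = 0.627) or input replicate 1 (adjusted p = 0.174).

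FPR2, a prolyl isomerase of the FKBP family and the shortest member with 408 coding bases, had the largest monosome to input ratio of the 10 in each strain. It had 24.4 and 18.7 CPM in ΔRPL22A monosomes against 7.515 and 5.76 in input, 29.95 and 28.9 CPM in ΔRPL22B monosomes against 5.39 and 3.63 in input, and 28.1 and 34.7 CPM in WT monosomes against 4.75 and 6.22 in input. All 6 monosome libraries lay above all 6 input libraries. The ratio was 1.701 ± 0.44 in ΔRPL22A (adjusted p = 0.00861), 2.71 ± 0.46 in ΔRPL22B (adjusted p = 7.21e-05) and 2.51 ± 0.45 in WT (adjusted p = 0.000153). The ΔRPL22B and WT calls were kept under every alternative and without any single library, and the ΔRPL22A call was lost without input replicate 2 (adjusted p = 0.103) or monosome replicate 1 (adjusted p = 0.11). Genes within 25% of its length had medians of 0.73, 0.996 and 0.87 in ΔRPL22A, ΔRPL22B and WT, and 82.1%, 89.8% and 89.0% of them lay below FPR2.

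FPR2 was likewise high in light polysomes, at 1.47 ± 0.43 over input in ΔRPL22A (adjusted p = 0.0125), 2.42 ± 0.44 in ΔRPL22B (adjusted p = 0.000145) and 2.12 ± 0.46 in WT (adjusted p = 0.000671), but there genes of like length reached medians of 1.41, 1.97 and 2.14. The ΔRPL22A call was lost without input replicate 2 (adjusted p = 0.138) or light replicate 1 (adjusted p = 0.256). In heavy polysomes the ratio to input was 0.34 ± 0.45 in ΔRPL22A (not called), 1.97 ± 0.46 in ΔRPL22B (adjusted p = 0.00315) and 1.51 ± 0.47 in WT (adjusted p = 0.0357). The heavy libraries had 7.43 and 9.77 CPM in ΔRPL22A, 12.1 and 22.7 in ΔRPL22B and 22.9 and 8.41 in WT. The WT call was lost without heavy replicate 1 (ratio 0.63, adjusted p = 0.652), input replicate 1 (adjusted p = 0.246) or input replicate 2 (adjusted p = 0.0904). The ΔRPL22B call was lost without heavy replicate 2 (adjusted p = 0.135) or input replicate 2 (adjusted p = 0.0673). In ΔRPL22A the heavy level also lay below the monosome level (-1.36 ± 0.44, adjusted p = 0.0245) and the light level (-1.13 ± 0.44, adjusted p = 0.0415), each call being lost without any of 3 single libraries.

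Over the 10 genes 8 of 30 heavy to input tests passed, 5 higher (HAC1 in 3 strains and FPR2 in ΔRPL22B and WT) and 3 lower, where 9.21% and 5.37% of all gene tests were called higher and lower. The 3 were SCJ1 in ΔRPL22A (-1.06 ± 0.35, adjusted p = 0.0357) and in ΔRPL22B (-1.34 ± 0.41, adjusted p = 0.024), and PDI1 in ΔRPL22A (-0.74 ± 0.26, adjusted p = 0.0481). Each of these 3 calls was lost under DESeq2 or in the fit without the 4 libraries, and without at least 2 single libraries.

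Between strains, the question was whether loss of a paralog changed the level of these mRNAs or their distribution. Of the 120 tests of the 10 genes (3 strain pairs in 4 pools), 1 was called. In ΔRPL22A against WT 0 of 40 passed and 3 had an unadjusted p under 0.05 with edgeR, where 4.65% of all genes were called in input, 5.48% in monosomes, 5.39% in light and 3.27% in heavy polysomes. In ΔRPL22B against WT 0 of 40 passed and 2 had an unadjusted p under 0.05, where 0.335%, 0.353%, 0.353% and 0.316% of all genes were called in those pools. In ΔRPL22A against ΔRPL22B 1 of 40 passed, where 5.26%, 3.09%, 7.19% and 5.43% of all genes were called. The comparisons share strains, so that their values for a gene are not independent of each other. DESeq2, which gave some low-count genes no adjusted p, called 0 of the 120.

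The 1 call was KAR2 in light polysomes, with 5.54 and 4.23 CPM in ΔRPL22A against 12.9 and 7.81 in ΔRPL22B (-1.07 ± 0.33, adjusted p = 0.0462). The 2 ΔRPL22A libraries lay below the 2 ΔRPL22B libraries, and the WT libraries, at 5.08 and 8.83 CPM, overlapped both. The call was lost under RLE scaling, DESeq2, a fit of the compared groups alone and a fit without the 4 libraries (-0.48), and in 3 of 4 fits without 1 library. In monosomes KAR2 had 10.8 and 13.2 CPM in ΔRPL22A against 20.1 and 24.5 in WT, a difference that did not pass (-0.88 ± 0.32, adjusted p = 0.102). That difference passed in a fit of the compared groups alone (adjusted p = 0.0341) and without the 4 libraries (adjusted p = 0.0123).

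HAC1 itself was called in none of the 12 strain comparisons of the fit of all libraries. In input the difference was 0.38 ± 0.37 for ΔRPL22A against WT, with a 95% interval of -0.38 to 1.13, and -0.30 ± 0.37 for ΔRPL22B against WT, with an interval of -1.05 to 0.46. The intervals leave room for a rise of 2-fold in ΔRPL22A and a drop of 2-fold in ΔRPL22B. In heavy polysomes the difference was -0.08 ± 0.37 for ΔRPL22A against WT (interval -0.83 to 0.67) and -0.24 ± 0.37 for ΔRPL22B against WT (interval -0.997 to 0.51). In light polysomes of ΔRPL22B it was -0.81 ± 0.37 against WT (adjusted p = 0.972). There the ΔRPL22B duplicates lay far apart, at 45.4 and 117.6 CPM, and without replicate 2 the difference was -1.65 (adjusted p = 0.0218) against WT and 1.24 (adjusted p = 0.0326) for ΔRPL22A against ΔRPL22B.

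**Figure D5:**
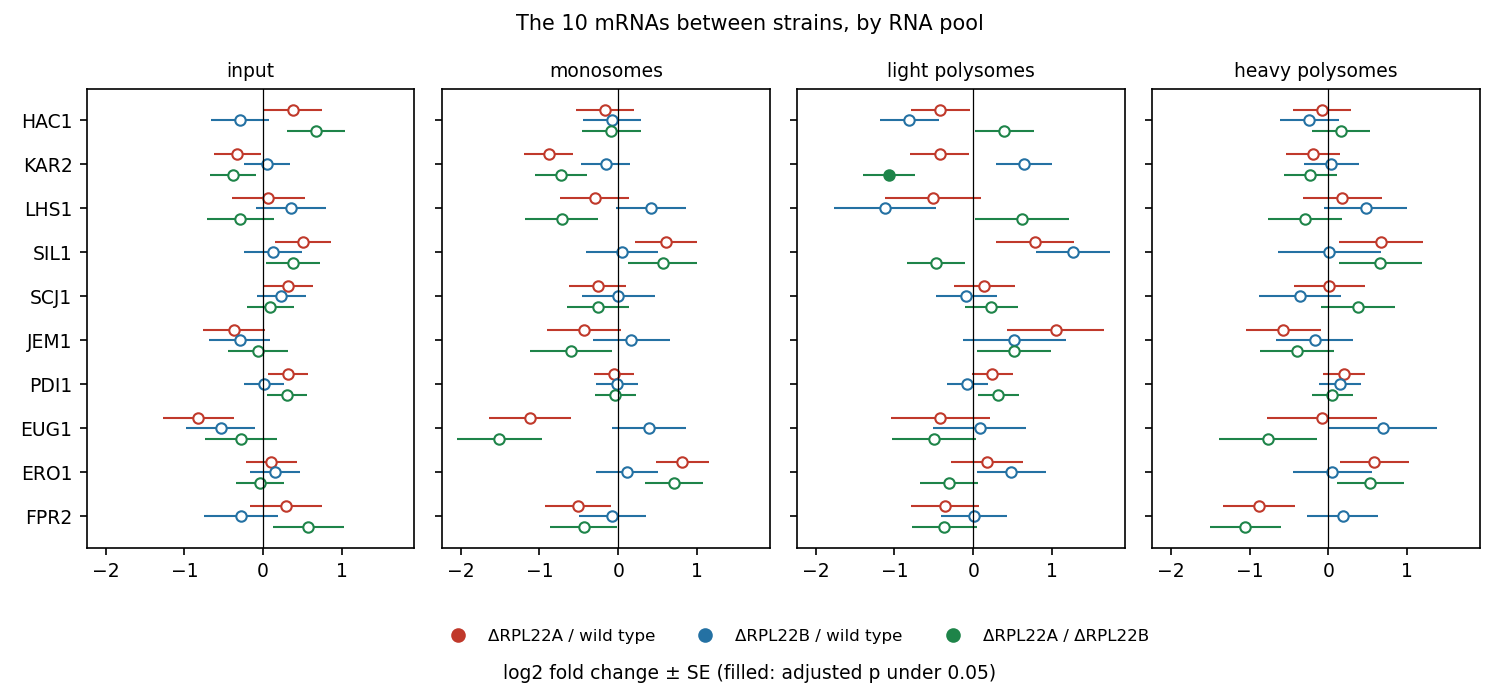
Log2 fold changes between strains with standard errors (horizontal axes) for the 10 mRNAs (rows) in each RNA pool: ΔRPL22A against wild type (red), ΔRPL22B against wild type (blue) and ΔRPL22A against ΔRPL22B (green). The only filled symbol, adjusted p under 0.05, is KAR2 in light polysomes, ΔRPL22A against ΔRPL22B.

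Among the other folding genes the largest differences in level were EUG1 in monosomes, with 1.93 and 1.73 CPM in ΔRPL22A against 7.26 and 2.89 in ΔRPL22B (-1.51 ± 0.54, adjusted p = 0.128), and SIL1 in light polysomes, with 5.004 and 3.45 CPM in ΔRPL22B against 2.08 and 1.26 in WT (1.26 ± 0.47, adjusted p = 0.929). Neither passed, although in both the libraries of the 2 strains did not overlap. EUG1 passed in a fit of the compared groups alone (adjusted p = 0.0093) and without the 4 libraries (adjusted p = 0.0366). FPR2 in heavy polysomes, 7.43 and 9.77 CPM in ΔRPL22A against 12.1 and 22.7 in ΔRPL22B, did not pass in the fit of all libraries (-1.06 ± 0.45, adjusted p = 0.182) and did in the same 2 alternatives (adjusted p = 0.000569 and 0.00284).

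Whether the distribution over the fractions differed between strains was tested directly, as the difference between strains in a log2 ratio between pools. Over the 6 pool ratios and 3 strain pairs, 0 of 180 tests of the 10 genes passed with edgeR and 2 had an unadjusted p under 0.05. The 3 ratios to input account for 90 of these tests, 1 of them with an unadjusted p under 0.05. Among all genes 0% were called in 8 of the 9 differences of ratios to input and 0.0558% in the ninth, the light to input ratio of ΔRPL22A against WT. Among the 9 differences of ratios between fractions 0.13% of genes were called in light to monosome and 0.0186% in heavy to light, both for ΔRPL22A against WT, and 0% in the other 7. The largest difference was that of FPR2 in the heavy to input ratio, -1.63 ± 0.64 for ΔRPL22A against ΔRPL22B (adjusted p = 0.331, interval -2.93 to -0.33), which passed in a fit of the compared groups alone (adjusted p = 0.0195). For HAC1 the heavy to input ratio differed by -0.46 ± 0.52 for ΔRPL22A against WT (interval -1.53 to 0.61) and by 0.06 ± 0.52 for ΔRPL22B against WT (interval -1.01 to 1.12). Shifts of 2-fold in either direction lie within the ΔRPL22B interval, so that the 2 strains are not shown to act alike.

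Genes that surround these 10 in the pathway were read by list. Unlike the 10, they were not set beside genes of like length, although ratios between pools went with coding length. In WT the median heavy to light ratio was -2.02 for genes up to 500 bases and 1.10 for genes from 3001 bases. The median light to input ratio in WT was 2.20 and -1.04 in these classes. How much of a ratio below goes with length was not tested. The Ire1 branch list (IRE1, the tRNA ligase gene TRL1, the tRNA phosphotransferase gene TPT1, the phosphatase gene PTC2 and the coactivator genes GCN5 and ADA5) had 0 calls in 72 strain tests. Of all genes, 0.316% to 7.19% were called per strain comparison and pool. The median ΔRPL22A to WT difference of this list in input was -0.26, against -0.02 for all genes. TRL1, which joins the HAC1 exons, had 7.13 and 7.27 CPM in ΔRPL22A heavy polysomes against 1.10 and 3.20 in input (1.795 ± 0.39, adjusted p = 0.00266). TPT1, which removes the phosphate that the ligase leaves, was lower in heavy than in light polysomes. Its heavy to light ratio was -1.65 ± 0.36 in ΔRPL22A (adjusted p = 0.000621), -2.44 ± 0.39 in ΔRPL22B (adjusted p = 4.41e-05) and -1.72 ± 0.42 in WT (adjusted p = 0.00234). PTC2 was called higher in WT heavy polysomes than in monosomes, at 0.98 ± 0.31 (adjusted p = 0.0225). In the heavy to light ratio the list was on both sides, with 4 of 18 tests higher and 3 lower (14.9% and 18% of all gene tests).

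The 9 other folding enzymes of the compartment had 0 of 27 heavy to monosome tests called higher and 8 lower, where 10.2% and 10.7% of all gene tests were. Their medians were -1.18 in ΔRPL22A, -0.98 in ΔRPL22B and -0.95 in WT. CPR5, a cyclophilin-type prolyl isomerase, was high in light polysomes over input, at 1.203 ± 0.26 in ΔRPL22A (adjusted p = 0.00198), 1.54 ± 0.27 in ΔRPL22B (adjusted p = 9.54e-05) and 1.63 ± 0.28 in WT (adjusted p = 7.22e-05). It was the only gene of this list to change between strains: in input it was higher in ΔRPL22A than in WT by 1.26 ± 0.27 (adjusted p = 0.0057) and than in ΔRPL22B by 1.10 ± 0.27 (adjusted p = 0.0144). FAD1, which makes the FAD cofactor that Ero1 uses, had the lowest adjusted p of the list in the heavy to monosome ratio, at -2.46 ± 0.44 in ΔRPL22A (adjusted p = 0.000309).

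The light to input ratio of the 13 translocation genes was called higher in 28 of 39 tests and lower in 0, with medians of 1.15 in ΔRPL22A, 1.59 in ΔRPL22B and 1.70 in WT, against -0.04, -0.04 and -0.12 for all genes. Across all genes, 17.2%, 20.7% and 20.8% were called higher in ΔRPL22A, ΔRPL22B and WT. Many of these proteins are short, such as SSS1 and SBH1 of the Sec61 complex and SPC1 of signal peptidase. In WT the ratio was 2.70 ± 0.42 for SSS1 (adjusted p = 3.45e-05), 1.95 ± 0.30 for SBH1 (adjusted p = 3.3e-05) and 2.51 ± 0.37 for SPC1 (adjusted p = 2.84e-05). SBH1 was lower in heavy than in light polysomes by -4.15 ± 0.37 in WT (adjusted p = 1.16e-08). Its paralog SBH2 was higher in monosomes than in input by 3.77 ± 0.46 (adjusted p = 2.4e-06), and reads that the paralogs share could be counted for either. Between ΔRPL22A and WT 4 of 52 tests were called, all higher, where 4.7% of all gene tests in the 4 pools were called and 2.43% were called higher. The 3 with the lowest adjusted p were SEC66 in light polysomes (1.47 ± 0.35, adjusted p = 0.00778), SPC3 in input (1.59 ± 0.41, adjusted p = 0.0202) and SPC2 in heavy polysomes (1.93 ± 0.52, adjusted p = 0.0344).

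Of the 12 tested genes for N-glycosylation and glycan trimming, the small oligosaccharyltransferase subunits showed the largest ratios. OST4 was higher in monosomes than in input by 2.70 ± 0.38 in WT (adjusted p = 9.11e-06) and lower in heavy polysomes than in monosomes by -3.94 ± 0.47 (adjusted p = 3.35e-06). OST5 was lower in heavy than in light polysomes by -4.17 ± 0.50 in WT (adjusted p = 6.34e-07). The heavy to monosome ratio of the list was called lower in 15 of 36 tests and higher in 0, where 10.7% and 10.2% of all gene tests were. Between strains 2 of its 144 tests passed, where 0.316% to 7.19% of all genes were called per strain comparison and pool. OST5 was lower in ΔRPL22A than in WT light polysomes (-1.26 ± 0.38, adjusted p = 0.0483). CWH41, glucosidase I, was lower in ΔRPL22A than in ΔRPL22B monosomes (-1.74 ± 0.47, adjusted p = 0.0373).

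The 15 genes for degradation of misfolded proteins went in both directions between pools. They had 0 calls in 180 strain tests, where 0.316% to 7.19% of all genes were called per strain comparison and pool. CDC48, the ATPase that pulls substrates out of the membrane, was higher in heavy than in light polysomes in all 3 strains. It had 135 and 198 CPM in ΔRPL22A heavy polysomes against 39.3 and 40.8 in light polysomes (2.06 ± 0.27, adjusted p = 3.28e-06), 156 and 196 CPM in ΔRPL22B heavy polysomes against 32.7 and 37.8 (2.32 ± 0.28, adjusted p = 1.24e-06), and 208 and 156 CPM in WT heavy polysomes against 40.6 and 33.6 (2.29 ± 0.28, adjusted p = 9.03e-07). It was also called higher in heavy polysomes than in monosomes, by 1.90 ± 0.27 in ΔRPL22A (adjusted p = 4.18e-05), 1.19 ± 0.27 in ΔRPL22B (adjusted p = 0.00399) and 1.36 ± 0.27 in WT (adjusted p = 0.000846). DFM1, a rhomboid-like membrane protein, and CUE1, which anchors a ubiquitin-conjugating enzyme, were higher in ΔRPL22B monosomes than in input. The ratio was 2.12 ± 0.36 for DFM1 (adjusted p = 8.15e-05) and 1.79 ± 0.37 for CUE1 (adjusted p = 0.000641).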

How the data were processed

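Polyadenylated RNA, per the labels, was sequenced from 24 libraries on 2 lanes that were merged. The authors deposited 1 table of raw read counts per gene. RSEM 1.2.18, SAMtools 0.1.19, cutadapt 1.4 and the sacCer3 build are listed, per the submitters' processing notes, without their roles. The sources used here do not give strand use or the handling of reads with several matches. Of 6369 rows 5908 matched the R64 annotation (the sacCer3 sequence). Counts were filtered with edgeR 4.0.16 (minimum count 10, minimum total 15), scaled by TMM and fitted with its quasi-likelihood test in R 4.3.3, as 12 group means over all 24 libraries, with Benjamini-Hochberg adjustment over 5380 genes and a threshold of 0.05. Residual degrees of freedom were 12 and prior degrees of freedom 16.1, and the 95% intervals used a t quantile on both together. Alternatives were RLE scaling, ribosomal DNA rows left out (7 rows), no filter, DESeq2 1.42.0, the compared groups alone, a replicate block, and leaving out libraries. The procedure was tested on simulated data. The members and lists were chosen with earlier results of these data known. The heavy to light and light to monosome comparisons and the 25% length window were added after values were seen. The genes named are the 10 members, the 5 genes of at least 10 CPM most correlated with HAC1, up to 3 called genes of lowest adjusted p per pathway list and family of comparisons, and RPL22A and RPL22B. With 2 libraries per group, precision is limited, and intervals cover the spread between these libraries.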

Additional observations from a re-analysis of the deposited data

How the results depend on the processing

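Of 51 calls of the 10 genes, 39 were kept under every alternative other than leaving out 1 library, and 14 were also kept without any single library. Depth limits the rarer genes, of which LHS1 had 4 to 49 and SIL1 3 to 42 reads per library. Pool comparisons kept their counts of called members within 1.5 times under all alternatives, and no called value of a member changed sign. Strain comparisons did not. In ΔRPL22A against WT, 0 member calls became 1 with the compared groups alone and 2 without the 4 libraries, and 6 pathway calls became 14 and 20. In ΔRPL22A against ΔRPL22B, 1 member call became 0 under RLE scaling, 0 under DESeq2, 3 with the compared groups alone and 2 without the 4 libraries, and 2 pathway calls became 4, 5, 7 and 10 under the same settings. For differences between strains in a pool ratio, the compared groups alone gave 1 member call and 1 pathway call in heavy to input, and leaving out the 4 libraries gave 2 pathway calls in light to input, against 0 in each. The cause was not tested.

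Leaving out 1 library gave 0 to 1 member calls in ΔRPL22B against WT (1 without ΔRPL22B light replicate 2), and 0 to 2 in ΔRPL22A against ΔRPL22B (0 without either ΔRPL22A light library or ΔRPL22B light replicate 1, 2 without ΔRPL22B light replicate 2). Pathway calls ranged from 3 to 6 in ΔRPL22A against WT (3 without ΔRPL22A input replicate 1 or either WT input library), from 0 to 2 in ΔRPL22B against WT (2 without ΔRPL22B light replicate 2) and from 1 to 9 in ΔRPL22A against ΔRPL22B (6 and 9 without ΔRPL22B light replicates 1 and 2, and 1 without any of 7 other libraries). In heavy to input they ranged from 14 (without ΔRPL22A input replicate 1) to 26, and in the light to input difference between strains from 0 to 4 (without ΔRPL22B light replicate 1). The percentile of HAC1 in heavy to input ranged from 86.5 to 96.6 in ΔRPL22A, 95.8 to 96.7 in ΔRPL22B and 94.7 to 97.5 in WT.

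Over all genes, the count of calls moved by over 1.5 times in 18 of 39 comparisons with the compared groups alone, 16 without the 4 libraries, 3 without the filter, 1 under DESeq2 and 0 under RLE scaling, without ribosomal DNA rows or with a replicate block. In light polysomes of ΔRPL22A against ΔRPL22B the 387 calls became 1 with the compared groups alone. The share of all calls that were higher also moved; DESeq2 changes the scaling and the test together. In input it was 46.4% for ΔRPL22A against WT, and 58.8% without ribosomal DNA rows and 59.6% under DESeq2. Against ΔRPL22B it was 44.2%, and 59.0% under RLE scaling, 61.0% without ribosomal DNA rows and 67.5% under DESeq2. Without ribosomal DNA rows it was 55.1% in place of 42.6% in heavy polysomes of ΔRPL22A against WT, 56.0% in place of 45.2% against ΔRPL22B, and 49.6% in place of 59.7% in ΔRPL22A monosomes against input. Under DESeq2 it was 77.5% in place of 58.4% in light polysomes of ΔRPL22A against ΔRPL22B.

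Replicate numbers were not taken to pair the samples in the main fit, since not every pair correlated above 0.1, which does not exclude pairing. Deviations of same-numbered samples correlated above 0.1 in 9 of 18 pairs of pools of a strain (r from -0.287 to 0.463). They did so in 5 of 12 pairs of strains (r from -0.700 to 0.309). Pool comparisons therefore treat the libraries as independent without this being known. With a replicate block, calls lost were PDI1 heavy to input in ΔRPL22A (-0.74), LHS1 light to input in ΔRPL22B (-1.298) and KAR2 light to monosome in ΔRPL22B (-0.91), with adjusted p of 0.0562, 0.0564 and 0.0539 from edgeR. A replicate block within strain also lost PDI1 and LHS1, as well as SCJ1 heavy to monosome in WT (-1.22, adjusted p = 0.0523) and heavy to light in ΔRPL22A (-0.93, adjusted p = 0.0602), and gained JEM1 heavy to light in WT (1.61, adjusted p = 0.0482).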
